A study of Homo sapiens with 4 samples.

Results

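The mitosis and spindle genes described here are 40 genes whose products drive a cell into and through division. They were taken by symbol from gene tables that list 22187 genes, and all 40 were found, each under 1 gene identifier. RNA was sequenced from 4 cultures of human multiple myeloma cells, 1 library each: KMS28BM with PKCα (the kinase that PRKCA encodes) stably knocked down, KMS28BM with a luciferase control construct, KMS18 with the PKCα knockdown, and KMS18 with the luciferase control. Both lines carry the t(4;14) translocation of malignant plasma cells, so every comparison below is made within that background. Whether each culture was 1 clone or a pool of cells, the knockdown sequence and the growth conditions are not given. With 1 library per line and construct, a difference between lines and a difference between single cultures cannot be told apart.

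A dividing cell enters mitosis when CDK1, bound to cyclin A or cyclin B and freed of inhibitory phosphates by CDC25 phosphatases, phosphorylates its targets. Polo and Aurora kinases, kinesin motors and microtubule-bundling proteins then build the spindle, and kinetochores tie each chromosome to it. The spindle assembly checkpoint holds back the anaphase-promoting complex until every chromosome is attached, after which that ubiquitin ligase, led by CDC20, marks securin and the B cyclins for destruction. Most of these genes are transcribed late in the cell cycle, and MKI67 is the antigen that pathologists stain to count cycling cells, myeloma cells included.

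Each library held 37940949 to 39507281 expected counts, with 11100 to 11591 genes at 1 FPKM or more (fragments scaled to listed gene length and to library size). All 40 genes reached 1 FPKM in all 4 libraries, and 39 of them reached 5 FPKM in all 4. The lowest count of any of them in any library was 284. PRKCA, the knockdown target, was at 2.43 FPKM in KMS28BM knockdown cells against 10.9 in KMS28BM control cells, and at 1.47 FPKM in KMS18 knockdown cells against 7.46 in KMS18 control cells (log2 difference -2.34, SE 0.11, edgeR adjusted p = 0.00153). All 9 plasma cell markers examined (SDC1, CD38, TNFRSF17, SLAMF7, PRDM1, IRF4, XBP1, MZB1 and JCHAIN) reached 1 FPKM, and their summed level was 7933 and 8661 FPKM in KMS28BM knockdown and control cells and 6599 and 7690 FPKM in KMS18 knockdown and control cells. Of the markers of other cells reported, 1 of 5 T cell (CD3E) and 1 of 5 myeloid genes (ITGAM) reached 1 FPKM in any library, with 0 of 3 erythroid, 0 of 4 stromal and 0 of 3 endothelial genes, and HBA1, COL3A1, CDH5 and KDR were listed at 0 throughout. The summed T cell markers were at 3.44 and 1.16 FPKM in KMS28BM knockdown and control cells and at 21.5 and 7.71 FPKM in KMS18 knockdown and control cells, and their part in the results below was not tested.

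Late cell cycle promoters are known for CCAAT boxes, which the factor NF-Y binds, and for a cell cycle genes homology region (CHR) near the start, bound by the MuvB core of the DREAM and MYB-MuvB complexes. Promoter windows of 300 bases, from 250 bases before to 50 bases after the start, were available from RefSeq (GRCh38.p14) for 33 of the 40 genes. FOXM1, UBE2C, TPX2, BUB3, TTK, AURKA and BIRC5 were not matched. Both strands were searched for CCAAT and for the CHR letters TTTGAA and TTCGAA. No other form of the CHR was searched for, so a window without a match may still hold one. Matches that overlap, as a CHR match and a CCAAT match on the other strand do in TTTGAATTGG, were each counted. CCAAT was found in 25 of the 33 windows (75.8%), against 36.7% of the windows of the other genes tested and 35.7% of all promoters in the table. At least 2 CCAAT matches were found in 16 windows (48.5%), against 13.6% of the other genes tested and 11.3% of all promoters. TTTGAA was found in 23 windows (69.7%), against 9.55% of the other genes tested and 15.4% of all promoters, and TTCGAA in 2 windows (6.06%), against 1.66% and 1.45%. Both a CCAAT and a CHR match were present in 20 windows (60.6%), against 4.43% of the other genes tested and 6.58% of all promoters. These are matches of letters, and binding was not measured.

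**Figure D1:**
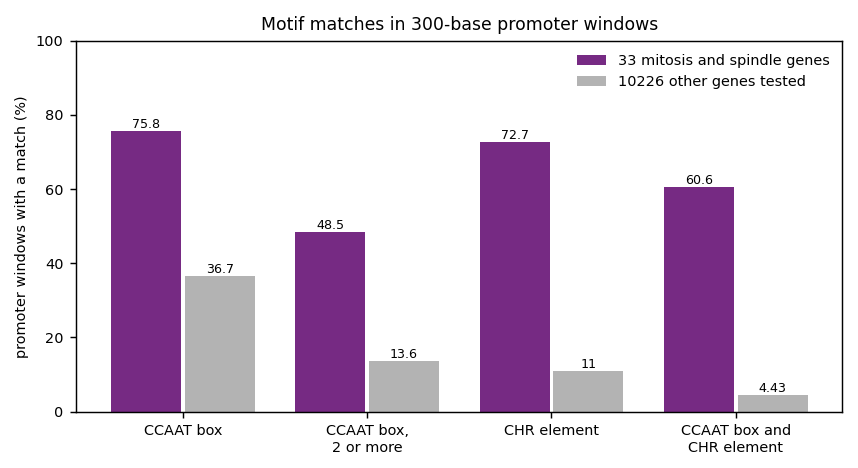
Share of 300-base promoter windows (percent, vertical axis) that hold a CCAAT match, 2 or more CCAAT matches, a CHR match (TTTGAA or TTCGAA) or both, for the 33 mitosis and spindle genes with a window (purple) and 10226 other genes tested (grey). The widest gap is in windows that hold a CHR match. Windows that hold both motifs stand at 60.6% against 4.43%.

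Of the 24 windows with a CHR match (72.7% of 33, against 11% of the other genes tested and 16.6% of all promoters), 19 had one that starts within 50 bases of the transcription start, as did 27.5% of the other genes' windows with a match. The windows of 5 genes are printed because their genes carry the results below or show the arrangement most plainly, and they are given 5′ to 3′ on the gene's strand with every CCAAT and CHR match on either strand in capitals. CCNB2 (chr15:59104896-59105195, plus strand) and PLK1 (chr16:23678639-23678938, plus strand) have a CHR match that starts 29 bases before the start and CCAAT matches further upstream. In CCNB2 3 of its 4 CCAAT matches start 120, 87 and 54 bases before the start. The windows of MAD2L1 (chr4:120066799-120067098, minus strand), HMMR (chr5:163460382-163460681, plus strand) and ANLN (chr7:36389612-36389911, plus strand), the genes with the largest knockdown differences, each hold a CHR match, in MAD2L1 24 bases after the start. All distances are counted from the RefSeq start. The gene positions given below come from GENCODE 29, which can place the start elsewhere, as for MAD2L1, whose gene begins at 120067074 there.
CCNB2: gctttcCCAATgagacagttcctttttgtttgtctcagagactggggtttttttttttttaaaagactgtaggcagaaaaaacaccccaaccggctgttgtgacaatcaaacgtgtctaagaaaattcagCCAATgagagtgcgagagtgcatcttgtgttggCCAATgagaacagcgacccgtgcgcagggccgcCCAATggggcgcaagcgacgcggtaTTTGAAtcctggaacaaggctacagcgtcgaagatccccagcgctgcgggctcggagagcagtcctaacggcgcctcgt
PLK1: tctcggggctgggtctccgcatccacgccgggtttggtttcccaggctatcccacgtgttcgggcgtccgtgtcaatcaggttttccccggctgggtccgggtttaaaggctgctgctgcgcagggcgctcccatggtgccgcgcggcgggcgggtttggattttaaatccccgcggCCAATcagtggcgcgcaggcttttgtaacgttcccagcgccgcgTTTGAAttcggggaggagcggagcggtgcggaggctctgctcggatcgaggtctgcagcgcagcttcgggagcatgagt
MAD2L1: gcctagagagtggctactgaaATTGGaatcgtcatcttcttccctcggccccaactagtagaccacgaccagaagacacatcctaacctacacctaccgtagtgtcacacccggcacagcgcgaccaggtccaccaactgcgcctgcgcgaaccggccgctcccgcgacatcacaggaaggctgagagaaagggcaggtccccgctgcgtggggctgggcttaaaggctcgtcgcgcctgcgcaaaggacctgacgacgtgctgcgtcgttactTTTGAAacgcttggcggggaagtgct
HMMR: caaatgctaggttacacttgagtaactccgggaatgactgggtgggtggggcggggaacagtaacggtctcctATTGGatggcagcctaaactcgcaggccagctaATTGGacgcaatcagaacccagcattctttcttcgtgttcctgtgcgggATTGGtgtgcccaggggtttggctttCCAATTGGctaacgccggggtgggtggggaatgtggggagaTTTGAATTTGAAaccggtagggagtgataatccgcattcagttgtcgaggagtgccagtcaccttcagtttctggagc
ANLN: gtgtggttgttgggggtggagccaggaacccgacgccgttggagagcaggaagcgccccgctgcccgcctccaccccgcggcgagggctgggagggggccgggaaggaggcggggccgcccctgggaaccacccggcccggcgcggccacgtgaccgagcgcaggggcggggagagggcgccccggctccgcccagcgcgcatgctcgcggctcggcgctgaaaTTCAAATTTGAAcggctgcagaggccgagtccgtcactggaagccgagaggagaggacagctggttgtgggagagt
HMMR has 5 CCAAT matches and 2 adjoining CHR matches, while ANLN has 2 CHR matches and no CCAAT match.

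The genes were well expressed and more so in KMS28BM. Their counts summed to 0.649% and 0.667% of the library in KMS28BM knockdown and control cells, and to 0.39% and 0.498% in KMS18 knockdown and control cells. Their median level was 40 and 43.3 FPKM in KMS28BM knockdown and control cells and 24.4 and 30.2 FPKM in KMS18 knockdown and control cells, where the median of all genes at 1 FPKM or more lay between 11.98 and 13.37 FPKM. By mean level over the 4 libraries PTTG1 (securin) was highest at 144 FPKM, followed by UBE2C at 118 FPKM and PLK1 at 106 FPKM. CDC25C was lowest at 6.94 FPKM and CENPE next at 10.7 FPKM, while BUB1B and CDK1, at 33.6 and 33.4 FPKM, stood at the middle of the order.

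**Figure D2:**
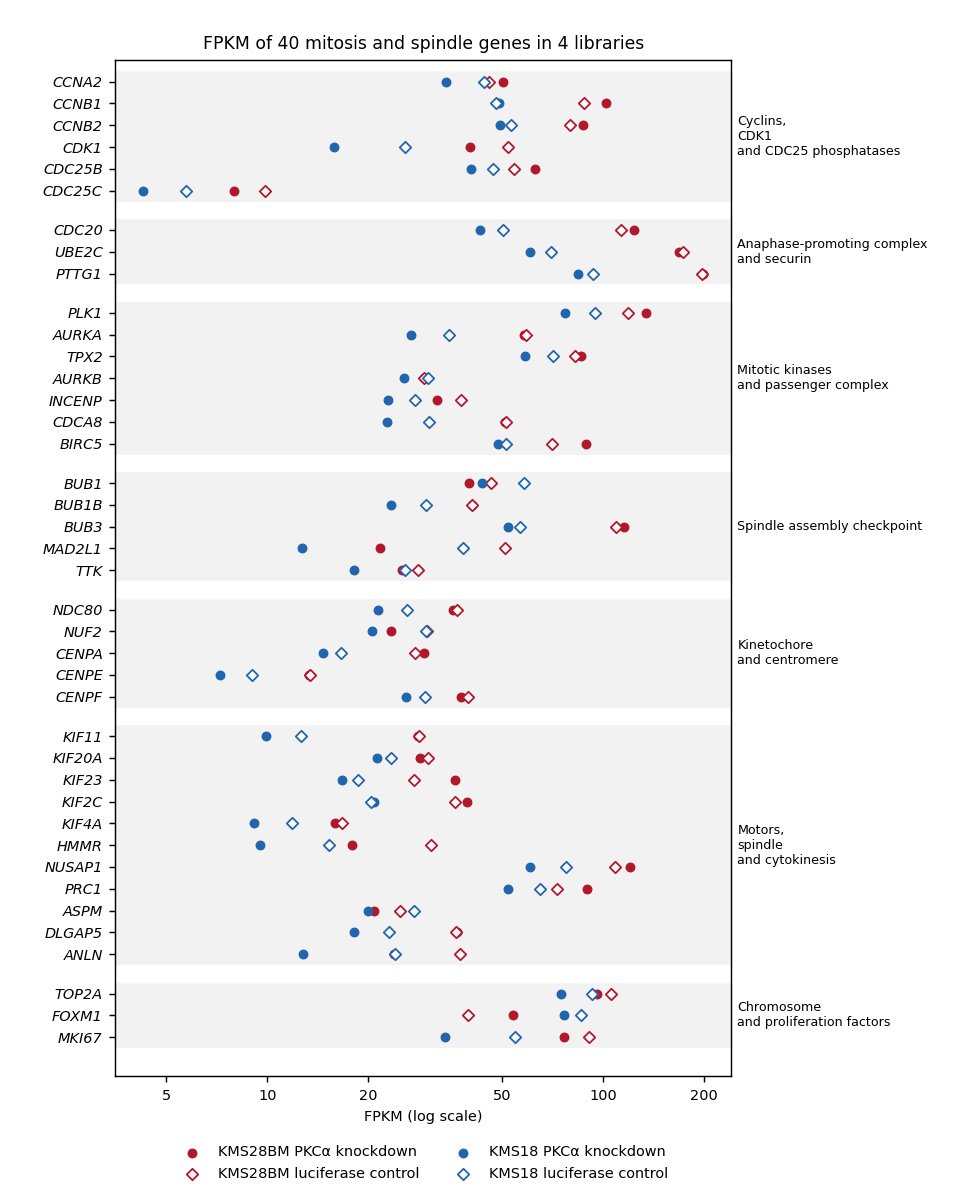
FPKM (log scale, horizontal axis) of the 40 genes, grouped by role, in KMS28BM (red) and KMS18 (blue), with filled circles for PKCα knockdown and open diamonds for luciferase control. Most red points lie right of the blue points of the same gene, FOXM1 is the reverse, and MAD2L1 has both filled circles left of both diamonds.

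Over both lines, 6 of the 40 genes were lower in PKCα knockdown than in control cells and 0 were higher by edgeR's quasi-likelihood test with Benjamini-Hochberg adjustment at 0.05, where 5.25% of 14870 genes tested were called lower and 3.57% higher. The 6 were MAD2L1, HMMR, ANLN, CDK1, NUF2 and ASPM. At an unadjusted p under 0.05 there were 14 lower and 0 higher, so 8 of these did not pass the adjustment. Of all 14870 genes tested, 2045 were lower and 1874 higher at that threshold. The log2 estimate was negative for 35 genes and positive for 5, against 7066 and 7804 of all genes tested. Its median was -0.22, against 0.02 over all genes tested. In FPKM, 6 genes had both knockdown libraries below both control libraries (MAD2L1, ANLN, NUF2, ASPM, BUB1 and TTK), as did 8.49% of the genes tested, and 0 had both above. With no filter on low counts 2 of the 6 were called (MAD2L1 and HMMR), where 1.66% of all genes tested were called. With no cell line block 0 of the 6 and 0 of all genes tested were called. The only replication of the knockdown is the pair of lines. A p-value here sets the mean change of the lines against an error with 1 residual degree of freedom. That error is moderated by a prior of 5.85 degrees of freedom drawn from all genes, so the p-value does not by itself measure how alike the lines moved. In bulk RNA, fewer cells in mitosis and less RNA per cell cannot be told apart.

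**Figure D3:**
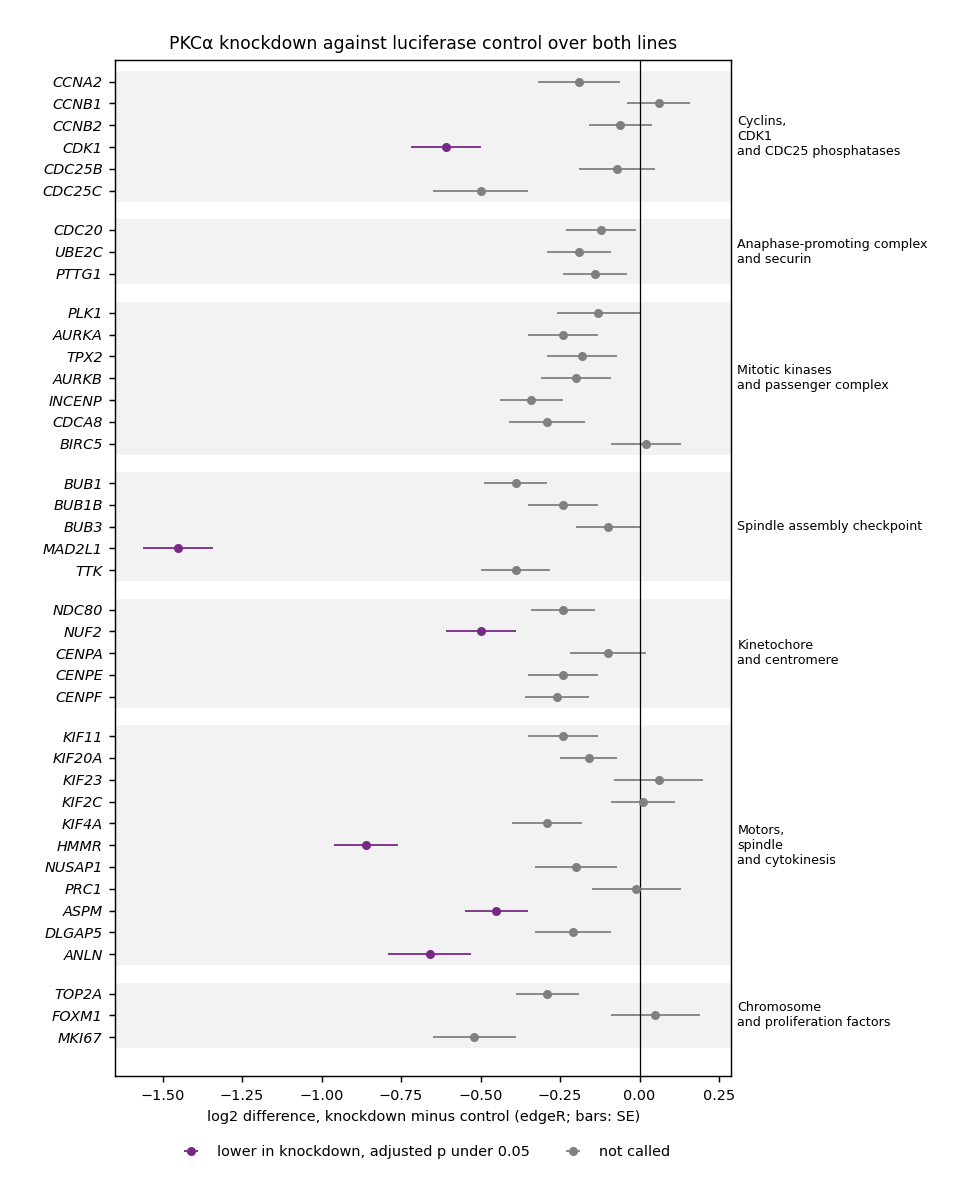
Log2 difference of the 40 genes, knockdown minus control over both lines (edgeR, horizontal axis; bars are the SE), with genes at adjusted p under 0.05 in purple and the others in grey. MAD2L1 at -1.45 stands apart, followed by HMMR, ANLN, CDK1, NUF2 and ASPM between -0.86 and -0.45, and most other genes lie left of 0.

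Between lines, 30 of the 40 genes were higher in KMS28BM than in KMS18 and 2 were lower, FOXM1 and BUB1, in the same edgeR fit with the construct as a term. Over all genes tested 30.6% were higher and 32.3% were lower in KMS28BM. The difference reached 0.5 on the log2 scale for 26 of the 30 and 1 for 5 of them: UBE2C, CDC20, KIF11, CDK1 and PTTG1. The shares of all genes tested called at these sizes were not computed, so these counts have no background beside them. The median was 0.61 against -0.02 over all genes tested. With the line alone in the model 18 of the 40 were called, where 43.9% of all genes tested were called. CCNA2, CDC25B, TPX2, AURKB, TTK, NUF2, ASPM and TOP2A were not called. In FPKM both KMS28BM libraries lay above both KMS18 libraries for 32 genes, as for 39.7% of the genes tested, and below them for FOXM1 alone, as for 33.7%, while for 7 genes the lines overlapped.

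**Figure D4:**
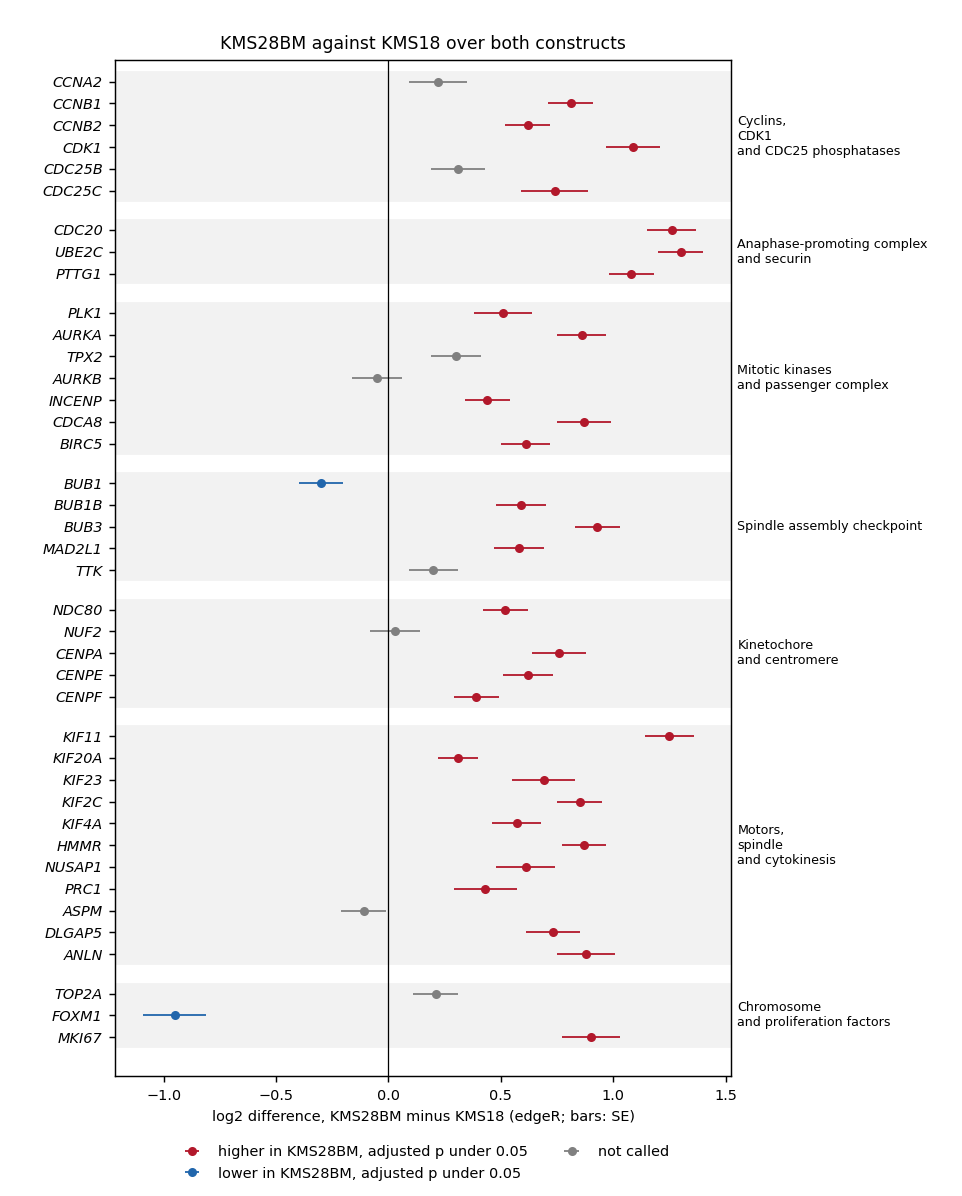
Log2 difference of the 40 genes between lines, KMS28BM minus KMS18 over both constructs (edgeR, horizontal axis; bars are the SE), with adjusted p under 0.05 in red (higher in KMS28BM) or blue (lower) and the rest in grey. The 3 genes of the anaphase-promoting complex group lie between 1.08 and 1.30, and FOXM1 lies at -0.95.

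Among the cyclins, CDK1 and the CDC25 phosphatases, CDK1 (chromosome 10, 60778331 to 60794852, plus strand, GRCh38), the kinase that drives entry into mitosis, fell on knockdown while its partner cyclins were not called. CDK1 was at 40.1 FPKM in KMS28BM knockdown and 52.1 in KMS28BM control cells, and at 15.8 FPKM in KMS18 knockdown and 25.8 in KMS18 control cells. Each knockdown library was below the control of its own line, but the control of KMS18 lay below the knockdown of KMS28BM, so the groups overlapped. The log2 difference was -0.61 (SE 0.11, edgeR adjusted p = 0.0247). The lines differed by 1.09 (SE 0.12, adjusted p = 0.000212). CCNB1, a cyclin B, was at 102 FPKM in KMS28BM knockdown and 87.8 in KMS28BM control cells, against 49.0 in KMS18 knockdown and 48.1 in KMS18 control cells. CCNB2, the other cyclin B measured, was at 87.5 and 80.05 FPKM in KMS28BM knockdown and control cells, against 49.4 and 53.4 FPKM in KMS18 knockdown and control cells. For both B cyclins the lines stood apart (log2 0.81, SE 0.10, and 0.62, SE 0.10, edgeR adjusted p = 0.000437 and 0.00172), and the knockdown estimates were 0.06 and -0.06 (SE 0.10 each). CDC25C, a phosphatase that activates CDK1, was at 7.96 and 9.81 FPKM in KMS28BM knockdown and control cells and at 4.27 and 5.71 FPKM in KMS18 knockdown and control cells. Its knockdown estimate of -0.50 (SE 0.15) had an edgeR adjusted p of 0.0829. CCNA2, cyclin A, and CDC25B passed neither test, with knockdown estimates of -0.19 and -0.07.

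The genes of the anaphase-promoting complex and securin had the largest median difference between lines, 1.26 on the log2 scale, and no call on knockdown. UBE2C, the ubiquitin-conjugating enzyme that works with the complex, was at 169 and 174 FPKM in KMS28BM knockdown and control cells, against 60.6 and 70.1 FPKM in KMS18 knockdown and control cells. CDC20, its activator and the target of the checkpoint, was at 124 and 114 FPKM in KMS28BM knockdown and control cells, against 43.0 and 50.4 FPKM in KMS18 knockdown and control cells. PTTG1, the securin that restrains separase, was at 199 and 198 FPKM in KMS28BM knockdown and control cells, against 84.4 and 93.6 FPKM in KMS18 knockdown and control cells. For each of the 3 genes both KMS28BM libraries stood well above both KMS18 libraries. The log2 differences between lines were 1.30, 1.26 and 1.08 (SE 0.10, 0.11 and 0.10), with edgeR adjusted p between 4.6e-05 and 0.000106. Their knockdown estimates lay between -0.19 and -0.12, with adjusted p of at least 0.261.

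Of the 7 mitotic kinases and passenger complex genes, 0 were called on knockdown and 5 were higher in KMS28BM. PLK1, the polo kinase of centrosomes and kinetochores, was at 135 and 119 FPKM in KMS28BM knockdown and control cells, against 77.0 and 94.6 FPKM in KMS18 knockdown and control cells. AURKA, the kinase of spindle poles, was at 58.25 and 58.9 FPKM in KMS28BM knockdown and control cells, against 26.7 and 34.7 FPKM in KMS18 knockdown and control cells. Both differed between lines (log2 0.51, SE 0.13, and 0.86, SE 0.11, edgeR adjusted p = 0.0116 and 0.00048), and TPX2, which activates AURKA on the spindle, did not pass (0.30, adjusted p = 0.0511). The chromosomal passenger complex holds AURKB on centromeres and then on the midzone through INCENP, CDCA8 (borealin) and BIRC5 (survivin). CDCA8 was at 51.1 and 51.6 FPKM in KMS28BM knockdown and control cells, against 22.7 and 30.4 FPKM in KMS18 knockdown and control cells. BIRC5 was at 88.8 and 70.3 FPKM in KMS28BM knockdown and control cells, against 48.6 and 51.5 FPKM in KMS18 knockdown and control cells. The 3 scaffold subunits were higher in KMS28BM (0.87 for CDCA8, 0.61 for BIRC5 and 0.44 for INCENP), whereas the kinase subunit AURKB was at -0.05 (SE 0.11, edgeR adjusted p = 0.745). On knockdown INCENP came nearest to a call (-0.34, SE 0.10, adjusted p = 0.0779).

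The spindle assembly checkpoint held the largest knockdown difference. MAD2L1 (chromosome 4, 120055608 to 120067074, minus strand, GRCh38) encodes MAD2, which binds CDC20 and keeps the anaphase-promoting complex inactive. It was at 21.7 FPKM in KMS28BM knockdown and 51.2 in KMS28BM control cells, and at 12.6 FPKM in KMS18 knockdown and 38.4 in KMS18 control cells. Both knockdown libraries lay below both control libraries with no overlap, at 42.4% of the control level in KMS28BM and 32.9% in KMS18. MAD2L1 fell on knockdown (log2 difference -1.45, SE 0.11, edgeR adjusted p = 0.00321) and ranked 23 by p among the genes tested. Between lines it was higher in KMS28BM (0.58, SE 0.11, edgeR adjusted p = 0.00357), although the FPKM ranges of the lines overlapped. The other 4 checkpoint genes were not called: BUB1, TTK (the kinase MPS1), BUB1B (BUBR1) and BUB3 had estimates of -0.39, -0.39, -0.24 and -0.10, with adjusted p of 0.0582, 0.0761, 0.239 and 0.583. BUB1, a kinase of the kinetochore, was at 39.9 and 46.3 FPKM in KMS28BM knockdown and control cells, against 43.7 and 58.05 FPKM in KMS18 knockdown and control cells, and it was the checkpoint gene that was lower in KMS28BM (-0.30, SE 0.10, edgeR adjusted p = 0.0353). BUB1B was at 40.6 and 40.8 FPKM in KMS28BM knockdown and control cells, against 23.3 and 29.7 FPKM in KMS18 knockdown and control cells. BUB3, which carries BUB1 and BUB1B to the kinetochore, was at 116 and 109 FPKM in KMS28BM knockdown and control cells, against 52.3 and 56.7 FPKM in KMS18 knockdown and control cells. BUB3 was higher in KMS28BM by 0.93 (SE 0.10). The line call of BUB1 was lost with no filter on low counts (edgeR adjusted p = 0.0631), in limma on log2(FPKM + 1) (adjusted p = 0.0958) and with the line alone in the model (edgeR adjusted p = 0.302), and that of MAD2L1 with the line alone (0.54).

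In the kinetochore and centromere group NUF2 (chromosome 1, 163266576 to 163355764, plus strand, GRCh38), a subunit of the NDC80 complex that grips microtubules, fell on knockdown. NUF2 was at 23.4 and 29.9 FPKM in KMS28BM knockdown and control cells and at 20.6 and 29.6 FPKM in KMS18 knockdown and control cells. The knockdown libraries lay below both control libraries (log2 difference -0.50, SE 0.11, edgeR adjusted p = 0.0358, and 0.055 with limma on log2(FPKM + 1)). The difference between lines was 0.03 (SE 0.11, adjusted p = 0.833). NDC80, its partner in the same complex, was at 35.6 and 36.7 FPKM in KMS28BM knockdown and control cells, against 21.4 and 26.1 FPKM in KMS18 knockdown and control cells. Its knockdown estimate was -0.24 (adjusted p = 0.201), and it was higher in KMS28BM by 0.52 (SE 0.10, edgeR adjusted p = 0.00415). CENPA, the histone H3 variant that marks centromeres, was at 29.3 and 27.6 FPKM in KMS28BM knockdown and control cells, against 14.7 and 16.6 FPKM in KMS18 knockdown and control cells. CENPE, a kinesin that moves chromosomes to the spindle equator, was at 13.3 and 13.4 FPKM in KMS28BM knockdown and control cells, against 7.22 and 9.01 FPKM in KMS18 knockdown and control cells. CENPA, CENPE and CENPF were all higher in KMS28BM (0.76, 0.62 and 0.39) and not called on knockdown.

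Motors, spindle and cytokinesis genes gave 3 of the 6 calls on knockdown, HMMR, ANLN and ASPM, and none of the 3 encodes a motor. HMMR (chromosome 5, 163460203 to 163491945, plus strand, GRCh38), a hyaluronan receptor that also binds spindle microtubules, was at 17.9 and 30.7 FPKM in KMS28BM knockdown and control cells and at 9.51 and 15.3 FPKM in KMS18 knockdown and control cells. ANLN (chromosome 7, 36389806 to 36453791, plus strand, GRCh38), anillin of the cleavage furrow, was at 23.8 and 37.6 FPKM in KMS28BM knockdown and control cells and at 12.8 and 23.95 FPKM in KMS18 knockdown and control cells. ASPM (chromosome 1, 197084128 to 197146694, minus strand, GRCh38), which focuses spindle poles, was at 20.8 and 24.8 FPKM in KMS28BM knockdown and control cells and at 19.9 and 27.3 FPKM in KMS18 knockdown and control cells. The knockdown libraries lay below both controls for ANLN and ASPM, while for HMMR the KMS28BM knockdown library was above the KMS18 control. The log2 differences were -0.86 for HMMR (SE 0.10, edgeR adjusted p = 0.00842), -0.66 for ANLN (SE 0.13, adjusted p = 0.026) and -0.45 for ASPM (SE 0.10, adjusted p = 0.0439). The listed length, by which FPKM is divided, differed by over 10% between knockdown and control for HMMR in KMS18 (ratio 0.894) and ANLN in KMS28BM (ratio 1.215), where the log2 count ratios were -0.91 and -0.45 beside log2(FPKM + 1) differences of -0.63 and -0.64. ASPM had an adjusted p of 0.052 with median of ratios scaling and 0.051 with upper quartile scaling.

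The 5 kinesins in that group were not called on knockdown, with estimates from -0.29 to 0.06, and all 5 were higher in KMS28BM. KIF11, the motor that pushes spindle poles apart, was at 28.1 and 28.3 FPKM in KMS28BM knockdown and control cells, against 9.88 and 12.6 FPKM in KMS18 knockdown and control cells (log2 difference between lines 1.25, SE 0.11, edgeR adjusted p = 0.000104). KIF2C, which depolymerises microtubules at centromeres, was at 39.3 and 36.3 FPKM in KMS28BM knockdown and control cells, against 20.75 and 20.3 FPKM in KMS18 knockdown and control cells. KIF23, the midzone motor of centralspindlin, was at 36.1 and 27.3 FPKM in KMS28BM knockdown and control cells, against 16.7 and 18.7 FPKM in KMS18 knockdown and control cells. For each of these 3 motors both KMS28BM libraries lay above both KMS18 libraries. KIF4A and KIF20A, motors of the late spindle, differed between lines by 0.57 and 0.31. KIF4A was at 15.9 and 16.7 FPKM in KMS28BM knockdown and control cells, against 9.13 and 11.8 FPKM in KMS18 knockdown and control cells. NUSAP1, a microtubule-bundling protein, was at 121 and 109 FPKM in KMS28BM knockdown and control cells, against 60.6 and 77.6 FPKM in KMS18 knockdown and control cells. DLGAP5, which stabilises kinetochore fibres, was at 36.8 and 36.4 FPKM in KMS28BM knockdown and control cells, against 18.1 and 23.1 FPKM in KMS18 knockdown and control cells. These 2 genes and PRC1, the midzone crosslinker, were higher in KMS28BM by 0.61, 0.73 and 0.43, and ASPM alone in the group was not called between lines.

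Among the chromosome and proliferation factors, FOXM1, a forkhead transcription factor that drives late cell cycle genes, was lower in KMS28BM, unlike most of the 40. FOXM1 (chromosome 12, 2857681 to 2877155, minus strand, GRCh38) was at 53.85 and 39.5 FPKM in KMS28BM knockdown and control cells, against 76.7 and 86.0 FPKM in KMS18 knockdown and control cells. The log2 difference of FOXM1 between lines was -0.95 (SE 0.14, edgeR adjusted p = 0.00106), and both KMS28BM libraries lay below both KMS18 libraries. MKI67, the Ki-67 antigen that coats mitotic chromosomes, was at 76.65 and 90.6 FPKM in KMS28BM knockdown and control cells, against 33.8 and 54.6 FPKM in KMS18 knockdown and control cells. It was higher in KMS28BM (0.90, SE 0.13, adjusted p = 0.00104), and its knockdown estimate of -0.52 (SE 0.13) narrowly missed the edgeR threshold at an adjusted p of 0.0567. TOP2A, the topoisomerase that untangles sister chromatids, was called in neither comparison (-0.29 on knockdown and 0.21 between lines).

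Within each line the genes were then compared by size, since 1 library per arm allows no test. A difference of 0.5 in log2(FPKM + 1) was reached by 3 genes in KMS28BM, all lower in knockdown cells (MAD2L1, HMMR and ANLN), where 5.60% of the genes at 1 FPKM were lower by this size and 9.03% higher. In KMS18 it was reached by 6 genes, again all lower (MAD2L1, ANLN, CDK1, MKI67, HMMR and NUF2), where 5.93% of genes were lower and 8.18% higher. The median over the 40 genes was -0.01 in KMS28BM, against 0.05 over all genes at 1 FPKM, and -0.30 in KMS18, against 0.04. In FPKM 22 genes were lower in knockdown cells of both lines, 16 in KMS18 alone and 0 in KMS28BM alone. CCNB1 and KIF2C were higher in both, but on TMM-scaled counts they were at -0.03 and -0.08 in KMS18. Of all genes at 1 FPKM, 4910 of 11455 were lower in KMS28BM and 5268 of 11742 in KMS18. The shares of all genes by both lines together were not computed.

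The exact 95% interval of the knockdown to control ratio of TMM-scaled counts, which covers counting error only, lay below 1 for 23 genes and above 1 for 10 in KMS28BM, against 30.1% and 28.8% of the genes tested. In KMS18 it lay below 1 for 38 genes and above 1 for 0, against 29.4% and 30.4%, and CCNB1 and KIF2C spanned 1. Without TMM the counts were 13 below and 15 above in KMS28BM, while those of KMS18 were 38 and 0 as before. The shares of all genes tested were not computed without TMM. The interval lay above 1 in KMS28BM and below 1 in KMS18 for 8 genes, as for 3.31% of the genes tested: CCNA2, CDC25B, CDC20, PLK1, BIRC5, KIF23, PRC1 and FOXM1. FOXM1 had the highest log2 ratio of the 40 in KMS28BM, 0.33 (interval 0.28 to 0.38), against -0.22 (interval -0.26 to -0.18) in KMS18. For MAD2L1 the log2 ratios were -1.32 (interval -1.40 to -1.23) in KMS28BM and -1.59 (interval -1.70 to -1.47) in KMS18.

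**Figure D5:**
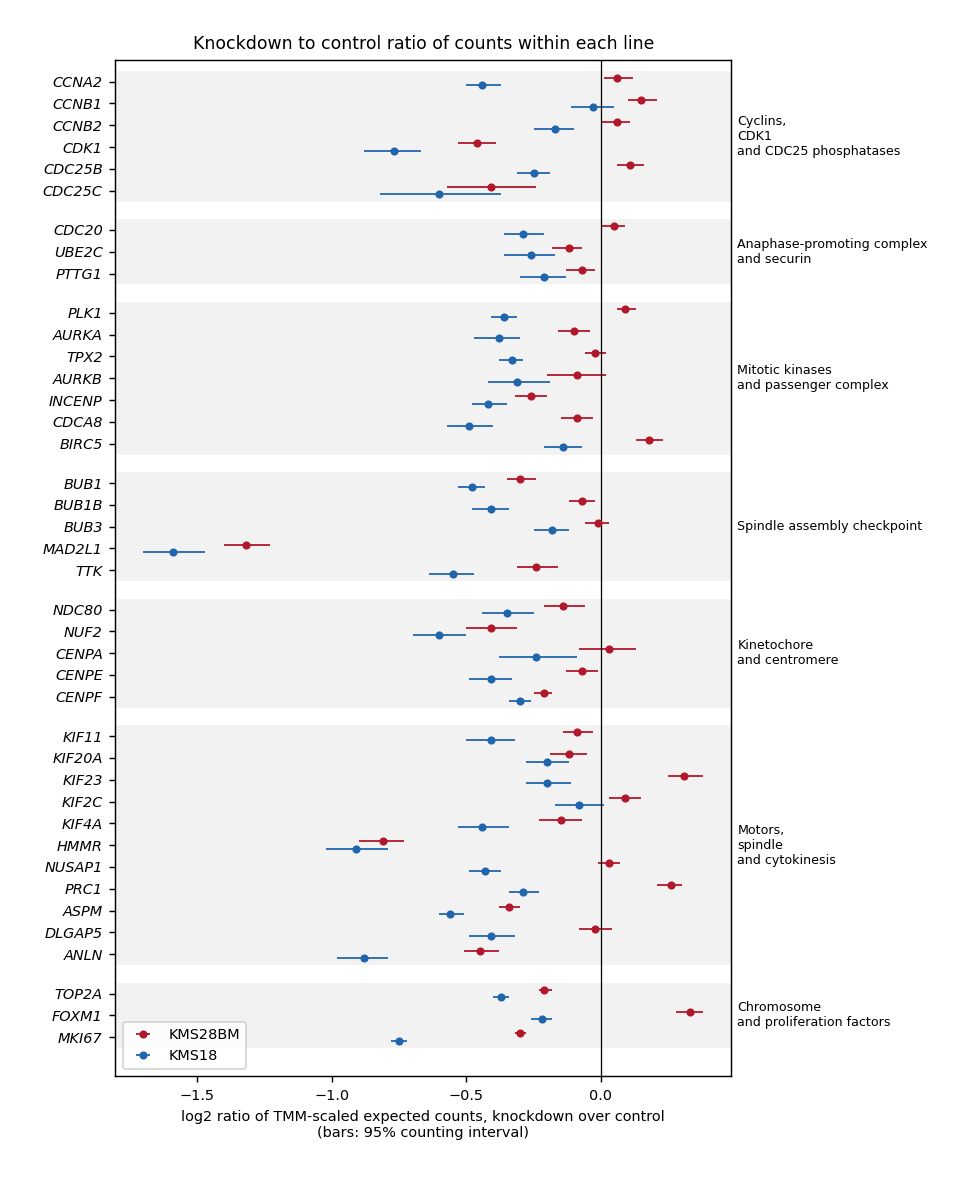
Log2 ratio of TMM-scaled counts, knockdown over control (horizontal axis), of the 40 genes in KMS28BM (red) and KMS18 (blue), with bars for the 95% counting interval. Every red point lies right of the blue point of the same gene, and MAD2L1 and HMMR lie far left of 0 in both lines.

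The knockdown to control ratio was higher in KMS28BM than in KMS18 for 40 of the 40 genes, where 48.0% of the genes tested had it higher. The difference had a median of 0.29 on the log2 scale and ran from 0.08 (KIF20A) to 0.55 (PRC1 and FOXM1), and its counting interval left out 0 for 37 genes. The share of all genes tested with such an interval was not computed, so that count has no background beside it. On log2(FPKM + 1), which also takes the listed length into account, the difference was positive for 39 genes, HMMR being the exception. The summed level of the mitotic kinases and passenger complex was 480.5 FPKM in KMS28BM knockdown and 449.6 in KMS28BM control cells, against 282.2 in KMS18 knockdown and 339.9 in KMS18 control cells, and that of the motors, spindle and cytokinesis genes was 457.2 and 450.1 FPKM in KMS28BM knockdown and control cells, against 251.0 and 319.0 FPKM in KMS18 knockdown and control cells. The checkpoint group summed to 243.0 and 275.8 FPKM in KMS28BM knockdown and control cells, against 150.1 and 208.5 FPKM in KMS18 knockdown and control cells. MAD2L1 alone gave 21.7 and 51.2 of the checkpoint FPKM in KMS28BM knockdown and control cells. The kinetochore and centromere genes summed to 139.4 FPKM in KMS28BM knockdown and 147.3 in KMS28BM control cells, and the chromosome and proliferation factors to 226.7 FPKM in KMS28BM knockdown and 236.0 in KMS28BM control cells. In KMS28BM the sums of these 3 groups were lower in the knockdown library and those of the other 4 were higher, whereas in KMS18 the sums of all 7 groups were lower in the knockdown library. The FPKM sums carry no TMM scaling, whose factors were 1.058 for KMS28BM knockdown and 1.001 for KMS28BM control cells. In KMS28BM the gaps of the motors group and of the anaphase-promoting complex group (491.5 and 485.4 FPKM in knockdown and control cells) were smaller than that shift. The direction of these gaps therefore depends on the scaling. The genes share their libraries and many are transcribed in the same phase, so they are not independent, and the difference between the lines' responses leaves no residual degree of freedom for a test.

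The 3′ UTRs of the genes were searched for AGTCTA, a sequence that came from an earlier search of genes already known to be lower on knockdown, so its counts support nothing by themselves. It was found in 4 of the 40 genes (10%), against 24.6% of the other genes tested (GENCODE 29, GRCh38). Of the 4, MAD2L1 and HMMR fell and BUB3 and CCNB1 were not called, and of the 36 genes without it 4 fell (11.1%). Among the other genes tested, 12.5% of those with AGTCTA and 3.61% of those without it were called lower on knockdown. The sites are shown 5′ to 3′ on the transcript, with the match and an A that follows it in capitals.
MAD2L1: acaacaaaggaAGTCTAAatattcagaa
HMMR: ttagtttcaagAGTCTAAaccccagatt
BUB3: tgactgcttgaAGTCTAAgatcaccaaa
CCNB1: tttaaagtaaaAGTCTAccaccgaatcc
The match begins at base 396 of a 3′ UTR of 4510 bases in MAD2L1, 315 of 781 in HMMR, 5715 of 6632 in BUB3 and 403 of 614 in CCNB1. In MAD2L1, HMMR and BUB3 the next base is A, and in CCNB1 it is not. The median knockdown difference was -0.48 over the 4 genes with AGTCTA and -0.22 over the 36 without, beside -0.09 and 0.04 over the other genes tested with and without it. In BUB3 only 1 of 3 transcripts holds the site.

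Related genes outside the 40 were counted by complex or role in the same edgeR fit, in which 5.25% of all genes tested fell and 3.57% rose. Of 20 cohesin and condensin genes 6 fell on knockdown and 0 rose, led by SMC4 (-0.67, SE 0.12, edgeR adjusted p = 0.0226) and NCAPG (-0.54, adjusted p = 0.0481) of condensin, SMC2 (-0.51, adjusted p = 0.0346) and the cohesin regulator PDS5A (-0.50, adjusted p = 0.0255), and the list's median was -0.30. Of 32 other kinetochore and centromere genes 4 fell and 0 rose (CENPH -0.71, SKA1 -0.69, SPC25 -0.68 and SKA3 -0.58), with a median of -0.25. SPC25 belongs to the NDC80 complex beside NUF2. Of 29 other spindle and cytokinesis genes CKAP2 (-0.73, SE 0.10, edgeR adjusted p = 0.00991) and SPAG5 (-0.54) fell, with a median of -0.14. Of 17 anaphase-promoting complex subunits and cofactors FBXO5, the inhibitor EMI1, fell (-0.75, SE 0.14, edgeR adjusted p = 0.0275), and of 12 centriole duplication genes CEP120 fell (-0.90, SE 0.13, edgeR adjusted p = 0.0131), with medians of -0.09 and -0.34. The 2 of 29 spindle genes and 1 of 17 anaphase-promoting complex genes that fell lay near the share of all genes tested. Of 18 kinases, phosphatases and regulators of mitotic entry 0 fell, and CCNB1IP1 rose (0.54, SE 0.11, edgeR adjusted p = 0.035), with a median of 0.02. Of 18 cell cycle transcription factors 4 fell and 0 rose (E2F3 -0.92, TFDP1 -0.70, E2F8 -0.62 and LIN54, a CHR-binding MuvB subunit, -0.58), with a median of -0.12. Of 26 S phase genes 6 fell and 0 rose, among them CDC6 (-0.92), CCNE2 (-0.92), FEN1 (-0.66) and ORC1 (-0.57), with a median of -0.30.

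In the comparison of lines, the genes higher and the genes lower in KMS28BM numbered 8 and 4 of the cohesin and condensin genes, 12 and 4 of the other kinetochore genes, 14 and 6 of the other spindle genes, 8 and 2 of the anaphase-promoting complex genes and 8 and 2 of the mitotic entry genes, where 30.6% of all genes tested were higher and 32.3% lower. For the cell cycle transcription factors the counts were 5 and 6, for centriole duplication 3 and 2, and for S phase 10 and 4, and the medians of all 8 lists lay between -0.11 and 0.28. In these lists the largest differences were at genes nearly silent in KMS28BM. The cohesin subunit STAG2 was at 0.2 and 0.05 FPKM in KMS28BM knockdown and control cells, against 73.8 and 85.25 FPKM in KMS18 knockdown and control cells (edgeR adjusted p = 9.08e-07). RB1, the retinoblastoma protein that restrains E2F factors, was at 0.41 and 0.12 FPKM in KMS28BM knockdown and control cells, against 13.6 and 15.6 FPKM in KMS18 knockdown and control cells (edgeR adjusted p = 7.84e-07). Their part in the difference between lines of the 40 genes was not tested.

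Strand was not kept, and the exons of 16 of the 40 genes overlap those of another gene, 13 of them on the opposite strand, so some reads could belong to the neighbour. CDC25C is the most exposed, with 284 counts in its lowest library beside up to 2938 for FAM53C, which overlaps it on the opposite strand. Among the 6 genes that fell, ANLN overlaps KIAA0895 (at most 82 counts) and NUF2 overlaps RGS5 (at most 73 counts), against at least 1443 and 1403 counts of their own, and MAD2L1 and HMMR overlap transcripts of the opposite strand that were not analysed here. Copies or pseudogenes named after them exist for 9 of the 40 genes, and the 4 copies that are listed had at most 4 counts.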

How the data were processed

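RNA sequencing was deposited as 1 gene table per library, 4 in all. Per the labels' protocols, libraries were made from total RNA with the TruSeq RNA kit v2, which does not keep strand. The authors' tables give an expected count (an estimated count that need not be whole), an FPKM value and a gene length in bases, per the file headers. STAR, Bowtie2 and HISAT are named without roles, as are GRCh37 and hg19, per the submitters' processing notes. No source used here gives the counting program. Promoter and gene positions come from reference tables on GRCh38, matched by symbol or gene identifier.

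Where identifiers shared a symbol, their expected counts and FPKM were added up. Counts rounded to whole numbers were tested with edgeR 4.0.16 (R 4.3.3), by quasi-likelihood on 14870 genes with TMM scaling, filterByExpr (minimum count 10), and line and construct in the model. This left 1 residual degree of freedom (prior 5.85), and p-values were adjusted by Benjamini-Hochberg at 0.05. A standard error is the log2 difference over the root of F. The procedure was checked on simulated data. Within a line the size rule was 0.5 on log2(FPKM + 1), which understates changes of genes at low level, with 1 FPKM in 1 of the 2 libraries. Counting intervals were exact conditional (Clopper-Pearson, 95%) and cover counting error only. Alternatives used DESeq2 1.42.0, limma 3.58.1, other scalings, filters, pseudocounts and sizes, and no line block. Knockdown and control libraries are paired by line in the labels, hence the line term.

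Values in every library are printed for genes called on knockdown, called between lines at 0.5 or more, or past the size rule, and for the highest, middle and lowest by level. Up to 4 called genes are named per related list. The 40 genes, the related lists, the marker lists and the motifs were chosen with earlier results of these data known. The result of one list of cell markers is not reported here.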

Additional observations from a re-analysis of the deposited data

Results flagged for a closer look

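For 8 of the 40 genes the knockdown library was above its control in KMS28BM and below it in KMS18, with counting intervals on opposite sides of a ratio of 1, which is why they are listed here. The log2 count ratio, knockdown over control, was 0.33 in KMS28BM and -0.22 in KMS18 for FOXM1, 0.31 in KMS28BM and -0.20 in KMS18 for KIF23, and 0.26 in KMS28BM and -0.29 in KMS18 for PRC1. It was 0.18 in KMS28BM and -0.14 in KMS18 for BIRC5, 0.11 in KMS28BM and -0.25 in KMS18 for CDC25B, and 0.09 in KMS28BM and -0.36 in KMS18 for PLK1. It was 0.06 in KMS28BM and -0.44 in KMS18 for CCNA2 and 0.05 in KMS28BM and -0.29 in KMS18 for CDC20. The difference between the lines was not tested, since each arm holds 1 library. With TMM scaling 3.31% of the genes tested showed this pattern. Without TMM scaling 13 of the 40 genes showed it, and the share of all genes tested was not computed for that setting.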

How the results depend on the processing

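With 1 library per line and construct, p-values rest on 1 residual degree of freedom and a prior of 5.85. Counting intervals say nothing of the spread between cultures. Of the 6 genes lower on knockdown, 2 were called with no filter on low counts, where 1.66% of all genes tested were called. With the identifier of most counts alone 3 were called, where 5.76% of all genes tested were called. With no cell line block 0 were called. In that last fit 0 of all genes tested were called by edgeR, and 1 of the 40 had an unadjusted p under 0.05. Each of the 40 has 1 identifier, so the fit on the identifier of most counts left their own counts unchanged. The other alternatives called 4 to 8, where 8.17% to 12.5% of all genes tested were called. MAD2L1 and HMMR were called in every alternative except the fit with no cell line block. CDK1 and ANLN were lost with no filter (adjusted p = 0.0744 and 0.0828), ANLN also with the single identifier (0.0508), NUF2 in 4 of these alternatives (0.0531 to 0.0901) and ASPM in 6 (0.051 to 0.101). Between lines 32 genes were called, and 18 with the line alone in the model, where 43.9% of all genes tested were called. The other alternatives called 30 to 34, where 39.1% to 66.5% of all genes tested were called. Among those alternatives BUB1 was lost in 3 (0.0631 to 0.0958) and PRC1 in 2 (0.0524 and 0.0734). Raising the size rule to a log2 fold of 1 left 1 gene, MAD2L1, in each line. Lowering it to 0.3 gave 19 in KMS18 and 8 in KMS28BM, of which 5 were lower and 3 higher. The shares of all genes past these sizes are not given here, so the counts are not set against a background. On TMM-scaled counts the median knockdown difference was -0.376 in KMS18 and -0.088 in KMS28BM, beside -0.295 and -0.007 on log2(FPKM + 1). None of the differences called by edgeR in the 40 genes changed sign in these fits, but uncalled differences within a line did. In KMS28BM, PTTG1 and AURKB were at 0.01 each on log2(FPKM + 1) and at -0.07 and -0.09 on TMM-scaled counts. TPX2, BUB3 and DLGAP5 in KMS28BM were at 0.06, 0.08 and 0.02 on log2(FPKM + 1). On TMM-scaled counts these genes were at -0.02, -0.01 and -0.02. In KMS18, KIF2C was at 0.03 and -0.08 and CCNB1 at 0.03 and -0.03. Of the counting intervals in KMS28BM more lay below than above 1 with TMM (23 and 10), and fewer without it (13 and 15). Knockdown and control were paired by line through the line term, and the labels give no replicate numbers for a further block.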
